A study of Mus musculus with 4 samples.

Results

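Designed DNA probes whose 4 varied bases strictly alternate between purines (A or G) and pyrimidines (C or T) were examined for binding of antibodies against UV photoproducts. The members were found from the probe names: in each of 21 libraries, 4 neighbouring bases run through all 256 combinations, and the 32 endings that alternate were kept. This gave 672 of the 5376 names in these libraries (12.5%), out of 6126 probe names on the array. The 672 names held 624 distinct sequences, because 48 sequences carried 2 member names, and 64 member sequences were also printed under a non-alternating ending of another library.

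The series concerns how UV changes the binding of transcription factors to DNA, and the arrays described here read out the photoproducts themselves. A mouse antibody against cyclobutane pyrimidine dimers (CPD) was applied at a dilution of 1 in 400 to 1 irradiated array, called CPD UV below, and to 1 non-irradiated array, CPD non-UV. A mouse antibody against 6-4 photoproducts (6-4PP) was applied at 1 in 80 to 1 irradiated array, 6-4PP UV, and to 1 non-irradiated array, 6-4PP non-UV. The probes are synthetic and of 59 or 60 bases, named after the transcription factors MITF, TBP and p53, some with mut, MUT or sebox in the name.

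UV light links neighbouring pyrimidines on the same DNA strand. In a CPD the bases are joined through a carbon ring, and in a 6-4PP through a single bond. Both products are known at dipyrimidines, that is TT, TC, CT or CC on the same strand, and a run in which purines and pyrimidines alternate holds none on either strand. Both products distort the helix and are removed from cells by nucleotide excision repair.

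For the 6-4PP antibody the labels disagree: each array's title names the condition that its array condition field gives to the other array. File names go with the field, which named the arrays throughout. With 1 array for each antibody and condition, differences between conditions or antibodies could not be checked on replicate arrays. Condition and antibody cannot be told apart from the array, and no error between arrays could be estimated.

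The backbones of all 21 libraries alternate too. A member could therefore hold a dipyrimidine only where the varied bases meet the backbone, here called the 5′ joint and the 3′ joint of the listed strand. In the 13 libraries of 60 bases, 16 of the 32 alternating endings continued the alternation and left the probe with 0 dipyrimidines, and the other 16 broke it at both joints and gave 2 (208 names of each). In the 8 libraries of 59 bases every alternating ending broke it at exactly 1 joint (256 names). Among the other endings of the 21 libraries, 0 were free of dipyrimidines, counted on both strands. A dipyrimidine in the opposite strand shows in the listed strand as a purine pair, so AA on the listed strand is TT on the opposite one.

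The probes on which the results turn are given here from the deposited files, 5′ to 3′ on the listed strand, with the 4 varied bases in capitals. The first trio shares 1 backbone and shows a probe without a dipyrimidine, 1 with TC on the opposite strand at the 5′ joint and CC on the listed strand at the 3′ joint, and 1 with TC at both joints.
MITF_ebox_60_CACA: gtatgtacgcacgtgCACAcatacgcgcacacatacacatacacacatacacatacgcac
MITF_ebox_60_ACAC: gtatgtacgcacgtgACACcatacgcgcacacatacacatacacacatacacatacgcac
MITF_ebox_60_ATAT: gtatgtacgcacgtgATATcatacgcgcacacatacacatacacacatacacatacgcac
The next pair holds a single TT between A and A, on the listed strand in the first probe and on the opposite strand in the second.
MITF_Ex_ebox_59_ATAT: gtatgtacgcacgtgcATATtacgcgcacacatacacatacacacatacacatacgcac
MITF_ebox_59_TATA: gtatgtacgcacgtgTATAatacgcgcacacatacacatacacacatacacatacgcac
The last group gives the ends of the range: the brightest members with the CPD antibody (TBP_E59_ATAT, TBP_MUT_E59_ATAT, p53_E_mut_60_TATA), a member at the ceiling with the 6-4PP antibody (p53_60_ATAT), and the dimmest member with each antibody (TBP_60_TACG for CPD, MITF_Ex_ebox_59_TGTG for 6-4PP).
TBP_E59_ATAT: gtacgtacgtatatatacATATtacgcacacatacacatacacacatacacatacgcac
TBP_MUT_E59_ATAT: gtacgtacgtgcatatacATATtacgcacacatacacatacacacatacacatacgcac
p53_E_mut_60_TATA: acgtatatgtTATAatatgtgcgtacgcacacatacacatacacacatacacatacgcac
p53_60_ATAT: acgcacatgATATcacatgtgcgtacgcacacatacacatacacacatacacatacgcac
TBP_60_TACG: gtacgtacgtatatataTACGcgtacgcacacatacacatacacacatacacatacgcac
MITF_Ex_ebox_59_TGTG: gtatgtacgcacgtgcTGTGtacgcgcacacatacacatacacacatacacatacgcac

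Every name was printed in 10 spots, and its value is the median intensity of its unflagged spots. All 672 members were brighter on the UV array than on the non-UV array of the same antibody. With the CPD antibody the median over members was 2874.75 on the UV array and 29 on the non-UV array, and the median difference of members was 6.65 on the log2 scale, with a range of 5.09 to 8.21. With the 6-4PP antibody the medians were 7373.25 on the UV array and 55.5 on the non-UV array, and the differences ran from 5.46 to 10.71 around a median of 7.18. The lowest member on each UV array, at 972.5 with CPD and 2635 with 6-4PP, was above the highest member on the matching non-UV array, at 55 with CPD and 75.5 with 6-4PP. Probes without any dipyrimidine took part in this: their median differences were 6.38 with CPD and 6.53 with 6-4PP over 208 names.

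Replicate spots gave the technical spread. The median SD of log2 intensity over the spots of a member was 0.68 on the CPD UV array, 0.21 on CPD non-UV, 0.39 on 6-4PP UV and 0.15 on 6-4PP non-UV. In the deposited spatially adjusted intensity it was 0.29 on CPD UV, 0.13 on CPD non-UV, 0.32 on 6-4PP UV and 0.14 on 6-4PP non-UV. Without that adjustment, values of single probes are thus the least certain on the CPD UV array. Intensity ended at a ceiling of 65535, which 4 member medians reached, all on the 6-4PP UV array, and these are lower bounds.

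The first comparison asked what the step from an unbroken alternation to a break at both joints did, with backbone and length held fixed. In all 13 libraries of 60 bases the members with 2 dipyrimidines were brighter than those with 0 on both UV arrays. With the 6-4PP antibody the median was 13803.8 with 2 dipyrimidines and 4832 with 0 (208 names each). The difference within a library was 0.60 to 2.12 on the log2 scale, with a median of 1.51, or 2.84-fold. Of the 208 members with 2 dipyrimidines, 202 (97.1%) lay above the highest member without one in their library, and in 9 libraries all 16 did.

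With the CPD antibody the difference was smaller than with 6-4PP in each of these libraries except p53_E60. The CPD UV median was 3722 with 2 dipyrimidines and 2341.75 with 0, and the difference within a library ran from 0.10 to 1.40, with a median of 0.61, or 1.52-fold. Of the 208 members with 2 dipyrimidines, 126 (60.6%) lay above the highest without one. Whether the antibodies differ in this was not tested, as each rests on 1 irradiated array. On the non-UV arrays the median differences were 0.06 for CPD, higher in 12 of 13 libraries, and 0.03 for 6-4PP, higher in 11 of 13.

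Single libraries set the ends of this range. In p53_E_mut_60, with T before and A after the varied bases, members with 2 dipyrimidines had medians of 6800.5 on CPD UV and 20138.2 on 6-4PP UV, and those with 0 had 2573.5 and 4615.25 on the same arrays. That was 2.64-fold for CPD and 4.36-fold for 6-4PP, and all 16 members with a break lay above all 16 without on each UV array. The 6-4PP difference was smallest in p53_E60, where members with 2 had a median of 9871.5 and those with 0 had 6491.5, or 1.52-fold. On CPD UV the medians of p53_E60 were 6241 with 2 and 3590 with 0, or 1.73-fold. Both p53_E libraries share the bases next to the varied ones and differ further out in the site. For CPD the smallest difference was that of MITF_ebox_60, where members with 2 had a median of 2515.25 and those with 0 had 2348.25, or 1.07-fold, with 6 of 16 above the highest without.

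The trio printed above shows these steps on 1 backbone. MITF_ebox_60_ATAT stood at the ceiling of 65535 in all 10 spots of the 6-4PP UV array, MITF_ebox_60_ACAC had 14163 ± 3592 and MITF_ebox_60_CACA had 4064.5 ± 1356 (median ± SD over 10 spots). On the CPD UV array MITF_ebox_60_ATAT had 4990.5 ± 2973, MITF_ebox_60_ACAC 2114 ± 1067 and MITF_ebox_60_CACA 1516.5 ± 1408. The medians of the CACA probe and the ACAC probe were thus within each other's spot SD on CPD UV, and further apart than that on 6-4PP UV. The difference between these probes was not tested. The non-UV medians of the trio were 26 to 30.5 for CPD and 56.5 to 57.5 for 6-4PP.

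The same 4 bases gave different intensities in libraries where they made different joints. For a given ending, the number of joints goes with library and length, and these cannot be told apart. Ending ATAT left no dipyrimidine in 6 libraries, 1 in 8 and 2 in 7. On the 6-4PP UV array its lowest, median and highest intensities were 4514.5, 5135 and 6020 with 0 dipyrimidines, 13780, 21103.2 and 26362 with 1, and 35440.5, 65535 and 65535 with 2. These ranges did not overlap. On the CPD UV array the order was different: ATAT had a median of 2205 with 0, 8815.5 with 1 and 5130 with 2, where the single joints were mostly TT and the pairs of joints mostly TC.

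GCGC had medians closer together than those of ATAT on both UV arrays. It had 6-4PP UV medians of 4496.75 with 0 dipyrimidines, 5330.25 with 1 and 6849 with 2, with overlapping ranges, and CPD UV medians of 2078.75, 2288.25 and 1928 in the same order. CGCG had 6-4PP UV medians of 4400.5, 7351.5 and 14229, and CPD UV medians of 2122.5, 2175.75 and 3829.75. In TATA, the reverse of ATAT, the 6-4PP UV medians were 4874, 6985.75 and 11448.8, and the CPD UV medians 2492, 2963.5 and 5961. The 4 endings that repeat A with C or G with T had 6-4PP UV medians of 4542.75 to 5155 with 0 dipyrimidines, 7109.75 to 8110.25 with 1 and 11390.2 to 18275.8 with 2.

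Members of 59 bases carry a single dipyrimidine in an otherwise alternating molecule, so they show each type alone at 1 length. On the 6-4PP UV array TC was the brightest type, with a median of 19009 (range 6845.5 to 26513.5, 32 names in 2 libraries). All TC joints of these members lie on the opposite strand. TT followed at 11556.8 (5457.5 to 23085, 64 names), CC at 8172 (4594.5 to 12003.5, 64 names) and CT at 5888.25 (2635 to 10698.5, 96 names). On the CPD UV array TT was the brightest, at 6346.25 (3305.5 to 12090), then TC at 4333.25 (1524 to 6007.5), CT at 2788.25 (1357 to 4786) and CC at 2174.5 (1167.5 to 3508). Ranges of neighbouring types overlapped on both arrays. Types also differed in library and in the bases beside them.

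Pairs of members that differ by a single transition, A for G or T for C, hold library, length and the other varied bases fixed. The changed base lies in a dipyrimidine, next to one, further away, or in a probe without any. The pair test was a two-sided exact permutation test over the replicate spots of 2 names on 1 array, with Benjamini-Hochberg adjustment over all 10752 such pairs of the 21 libraries and a threshold of 0.05 on the adjusted p. It compares spots of 1 array and not conditions, and pairs that share a probe are not independent. The smallest p that 10 spots against 10 allow is 1.08e-05. Among the 1344 pairs of members, 486 (36.2%) passed on the 6-4PP UV array, where 56.7% of all pairs of the libraries passed. Of these, 374 were higher with T or A (40.7% of all pairs were) and 112 higher with C or G (16.1% of all pairs). The CPD UV array gave 146 passing pairs of members (10.9%), where 32.4% of all pairs passed. Here 141 were higher with T or A (32.2% of all pairs) and 5 with C or G (0.149% of all pairs).

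On the CPD non-UV array 23 passed (7.63% of all pairs did), 21 of them higher with T or A (7.41% of all pairs) and 2 with C or G (0.214%). On the 6-4PP non-UV array 15 passed (2.98% of all pairs did), 14 of them higher with T or A (2.06%) and 1 with C or G (0.921%). With both directions together, the members' share was below that of all pairs on each of the 4 arrays.

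The calls of the CPD UV array moved with the spatial adjustment: with the deposited spatially adjusted intensity 463 of the 1344 pairs passed (34.4%), where 63.5% of all pairs did. Differences below are those of the probe with T or A minus the probe with C or G, on the log2 scale, as the median over pairs.

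A change in the first base of a single dipyrimidine, from C to T, went with higher signal of both antibodies. From CC to TC the 6-4PP UV difference was 1.13 (16 pairs, all higher with T, 12 passing) and from CT to TT it was 0.99 (48 pairs, 47 higher, 42 passing). With CPD, CT to TT gave 1.38 (48 of 48 higher, 43 passing), and CC to TC gave 0.70 (14 of 16 higher, 2 passing, or 13 with the adjusted intensity). Among pairs passing at the first varied base, the one with the largest mean log2 difference over spots was the same on both arrays, MITF_ebox_59_ATGT with TC against MITF_ebox_59_GTGT with CC. Its TC probe had 24575 and its CC probe 7932 on 6-4PP UV (adjusted p = 5.43e-05, exact permutation test), and on CPD UV the TC probe had 4447 and the CC probe 1195.5 (adjusted p = 0.0036, exact permutation test).

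A change in the second base, from C to T, went opposite ways with the antibodies. On the 6-4PP UV array it lowered the signal: TC to TT gave -0.74 (0 of 16 higher with T, 15 passing as lower) and CC to CT gave -0.49 (3 of 48 higher, 27 passing as lower). On the CPD UV array TC to TT gave 0.22 (12 of 16 higher, 2 passing) and CC to CT gave 0.33 (39 of 48 higher, 7 passing). All 7 lay on the listed strand, where CC to CT gave 0.47 (29 of 32 higher), against 0.12 on the opposite strand (10 of 16 higher, 0 passing and 0 with an unadjusted p under 0.05 in the exact permutation test). On 6-4PP UV it gave -0.40 on the listed strand (13 of 32 passing as lower) and -0.69 on the opposite strand (14 of 16). With the adjusted intensity the CPD value for TC to TT was 0.60, with 15 of 16 pairs passing as higher, and for CC to CT 33 of 48 passed as higher. The difference between the antibodies itself was not tested.

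By the same measure, the largest passing pair at the fourth varied base was MITF_Ex_ebox_59_GTAT against MITF_Ex_ebox_59_GTAC on 6-4PP UV, a TT in place of a CT at the 3′ joint. The probe with TT had 20479.5 and the probe with CT had 5611.5 (adjusted p = 5.43e-05, exact permutation test). On CPD UV it was TBP_MUT_E59_GTAT, with 10726.5, against TBP_MUT_E59_GTAC, with 2611, the same change in another library (adjusted p = 0.000245, exact permutation test). Both probes with TT hold it between A and A.

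The base 5′ of TC and TT went with differences of the same size as the type on the 6-4PP UV array. A in place of G there gave 1.47 for TC (8 of 8 pairs passing) and 1.20 for TT (24 of 24 passing), 0.68 for CC (7 of 8 passing) and 0.28 for CT (8 of 24 passing). The pair MITF_sebox_59_ATAC and MITF_sebox_59_ACAC shows it for TC on the opposite strand: the probe with A before TC had 23647.5 and the probe with G before TC had 6845.5 (adjusted p = 5.43e-05, exact permutation test). With the CPD antibody A in place of G gave 0.58 for TT (24 of 24 higher, 15 passing), and 0.61 for TC (7 of 8 higher, 2 passing, or 6 with the adjusted intensity). Of the CPD UV pairs passing at the second varied base, the one with the largest mean log2 difference over spots was of this kind: p53_60_ATGC, with A before TC at the 5′ joint, had 5833.5 and p53_60_ACGC, with G before it, had 2301.5 (adjusted p = 0.0176, exact permutation test). For CT on CPD UV the change gave 0.25, with 3 of 24 pairs passing, or 8 with the adjusted intensity. It gave 0.36 on the listed strand (13 of 16 higher) and -0.05 on the opposite strand (4 of 8 higher). For CC on CPD UV the change gave 0.15 (4 of 8 higher, 0 passing, or 1 with the adjusted intensity).

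The 3′ base had smaller differences. A in place of G after the dipyrimidine gave 0.51 for TT (7 of 8 passing), 0.50 for TC (4 of 8), 0.31 for CC (8 of 24) and 0.17 for CT (0 of 24) on 6-4PP UV. On CPD UV it gave 0.38 for TT (1 of 8 passing), -0.08 for TC (0 of 8), -0.01 for CC (0 of 24) and 0.05 for CT (0 of 24, or 8 with the adjusted intensity). In these exact permutation tests an unadjusted p under 0.05 was reached by 2 of the 24 CT pairs on 6-4PP UV, and on CPD UV by 0 TC, 2 CC and 0 CT pairs. Contexts of 4 bases, the dipyrimidine with a neighbour on each side, therefore spread widely: on 6-4PP UV ATCA had a median of 23623.2 (20642.5 to 26513.5, 16 names) and GTCA 8891.75 (6845.5 to 10734, 8 names), without overlap.

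Changes at varied bases further from the joint passed in few pairs. Of 256 pairs in which the changed base neither belonged to the single dipyrimidine nor stood next to it, 11 passed on 6-4PP UV and 3 on CPD UV. Of the 128 pairs with the change inside the dipyrimidine 96 and 54 passed on those arrays, and of the 128 with the change beside it 66 and 21. With the adjusted intensity the CPD UV counts were 23, 109 and 43. In the same order, the shares were 4.30%, 75% and 51.6% on 6-4PP UV, where 56.7% of all pairs of the libraries passed. On CPD UV they were 1.17%, 42.2% and 16.4%, where 32.4% of all pairs passed, or 63.5% with the adjusted intensity.

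Members with a single dipyrimidine hold it on the listed strand in 4 libraries and on the opposite strand in the other 4, and 8 contexts occur on both. ATTA showed the clearest contrast. On 6-4PP UV its 16 probes with ATTA on the listed strand had a median of 20716.2 (17994.5 to 23085) and its 16 probes with ATTA on the opposite strand 13698.5 (11831.5 to 17040), which is 1.51-fold with no overlap. On CPD UV the medians were 9372.5 on the listed strand (6578 to 12090) and 6295 on the opposite strand (5094 to 7632.5), or 1.49-fold. Strand goes with library here, and the 2 cannot be told apart.

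The pair printed above shows this in single probes. MITF_Ex_ebox_59_ATAT, with ATTA on the listed strand, had 9998.5 ± 2027 on CPD UV and 19761 ± 6749 on 6-4PP UV. MITF_ebox_59_TATA, with ATTA on the opposite strand, had 5989.5 ± 1446 on CPD UV and 13539 ± 1713 on 6-4PP UV (SD over 10 spots). GTTA was also brighter on the listed strand, 1.43-fold on 6-4PP UV and 1.63-fold on CPD UV. Over the 8 contexts, 7 were brighter on the listed strand on 6-4PP UV, with a median log2 difference of 0.23. On CPD UV 4 of 8 were, with a median of 0.23, and with the adjusted intensity 7 of 8, with a median of 0.28. The 6-4PP non-UV array had 8 of 8 brighter on the listed strand, with a median of 0.09, and CPD non-UV had 5 of 8, with a median of 0.05.

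Some of this ordering was also seen without UV. On the CPD non-UV array ATTA had a median of 38.5 on the listed strand (32.5 to 55) and 29.75 on the opposite strand (27 to 36.5). The brightest members there were TBP_E59_ACAT at 55 ± 6.5 and TBP_E59_ATAT at 49 ± 3.7 (SD over 10 spots), both with ATTA on the listed strand. The change from CT to TT gave 0.20 on that array, with 38 of 48 pairs higher. It gave 0.24 on the listed strand (30 of 32 higher) and 0.02 on the opposite strand (8 of 16 higher). Of the 48 pairs 7 passed, all as higher (14.6%, where 7.41% of all pairs passed as higher with T or A). On the 6-4PP non-UV array the same change gave 0.01, with 2 of 48 passing as higher (4.17%, where 2.06% of all pairs did). A in place of G 5′ of a single TT gave 0.17 on CPD non-UV (17 of 24 higher, 2 passing as higher, or 8.33%). On 6-4PP non-UV the change gave 0.14 (20 of 24 higher, 1 passing as higher, or 4.17%). With the adjusted intensity 10 passed on CPD non-UV (41.7%, where 17.2% of all pairs did) and 4 on 6-4PP non-UV (16.7%, where 3.32% did). For TC the change gave -0.01 and 0.01 on these arrays in that order, for CC -0.09 and -0.06, and for CT 0.02 and 0.04. The brightest members on the 6-4PP non-UV array were MITF_Ex_ebox_59_ATAT at 75.5 ± 6.6 and MITF_Ex_ebox_60_CATA at 73 ± 6.0 (SD over 10 and 9 spots). These levels are under 1% of those of the same probes on the UV arrays.

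Where both joints carry a dipyrimidine, the antibodies again differed in the brightest type. On 6-4PP UV the 28 members with TC at both joints had a median of 33504.5 (9414 to 65535), and those with CC and TC 19933.5 (8148 to 58845.5, 48 names). CC at both joints gave 11837.5 (6783.5 to 18342, 28 names), TT at both 10523 (8323.5 to 18348, 8 names) and CT at both 7764.5 (6278.5 to 9280.5, 8 names). On CPD UV TT at both joints was the highest, at 7957.25 (5659.5 to 10993.5), and CC at both the lowest, at 2057.75 (1270 to 3843.5). TC at both had 4703.5 there (2927.5 to 6765.5) and CT at both 3609.75 (2356.5 to 4112). These types also differed in library. TT at both joints occurred in 2 libraries, p53_E60 and p53_E_mut_60. In these, TC at both had medians of 17141.5 on 6-4PP UV and 4199.25 on CPD UV (8 names).

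The 4 members at the ceiling on 6-4PP UV were MITF_ebox_60_ATAT, MITF_sebox_60_ATAT, p53_60_ATAT and p53_mut_60_ATAT. All 4 hold ATCA at both joints, and the 1 further member with these contexts reached 65454. Their UV minus non-UV differences on the log2 scale were therefore at least 10.17, 10.14, 10.71 and 10.48 in that order. At the ceiling these bounds differ only through the non-UV medians of 57, 58, 39 and 46, and the order of the differences is not known. On CPD UV these probes had 4990.5, 5035.5, 4657 and 5373, below the median of 7559.5 of the members with a single ATTA.

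The 5′ base of TC showed the same difference in these probes. MITF_ebox_60_GCAT, with ATCA at the 3′ joint, had 37042.5 on 6-4PP UV, and MITF_ebox_60_GCGT, with GTCA there, had 10588.5 (adjusted p = 5.43e-05, exact permutation test). Among members with 2 dipyrimidines, A in place of G before TC passed in 46 of 48 pairs on 6-4PP UV, all 46 higher with A. On CPD UV it passed in 2 of 48 pairs, or 31 with the adjusted intensity, and 40 of 48 were higher with A.

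Whether the joints added up was read from the 13 libraries of 60 bases, each with a type richer in T and a type poorer in T at either joint. The departure from a sum on the log2 scale was the effect of the richer type at 1 joint when the other joint had its richer type, minus that effect when the other joint had its poorer type. On 6-4PP UV this departure had a median of 0.02 and ran from -0.20 to 0.17, with 7 libraries above 0 and 6 below. On CPD UV the median was -0.17 (-0.61 to 0.58), with 9 libraries below 0, or 12 below 0 with the adjusted intensity at a median of -0.14. Computed from 1 spot per name at a time, the CPD value had an SD of 0.23, larger than the value itself, and kept its sign in 8 of 10 spots. This SD describes single-spot values and is not the error of a value from medians of 10 spots.

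The 208 members without any dipyrimidine had the lowest medians of the 3 classes on the UV arrays. Their intensity ran from 972.5 to 4441 on CPD UV and from 3237.5 to 8599.5 on 6-4PP UV. Their SD between names on the log2 scale was 0.42 on CPD UV and 0.26 on 6-4PP UV, and within libraries 0.31 and 0.19. The median of each ending over its libraries ran on CPD UV over 0.64 from CACA, at 1845, to GTGT, at 2882, and on 6-4PP UV over 0.37 from ACGT, at 4316.5, to CGTG, at 5592.5. A range between extremes takes in the spread of spots. Computed from 1 spot per name at a time, it was 1.22 to 2.02 on CPD UV and 0.71 to 1.29 on 6-4PP UV. Whether endings differ beyond that spread was not tested. Endings that start with a purine and those that start with a pyrimidine occur in different libraries here, so ending and backbone cannot be told apart between them. The 48 sequences printed under 2 of these names differed between names by a median of 0.23 on CPD UV and 0.12 on 6-4PP UV, on the log2 scale.

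Transitions in these probes, which change base content and not the number of dipyrimidines, passed in 19 of 416 pairs on 6-4PP UV (4.57%) and 15 on CPD UV (3.61%), or 67 with the adjusted intensity. Among all pairs of the libraries, 56.7% passed on 6-4PP UV and 32.4% on CPD UV, or 63.5% with the adjusted intensity. Of the 15 on CPD UV, 12 were higher with T or A. The lowest adjusted p there belonged to a pair that went the other way, MITF_Ex_sebox_60_ACAT, at 1653.5, against MITF_Ex_sebox_60_ACGT, at 3258.5 (adjusted p = 0.00344, exact permutation test). On the 6-4PP non-UV array the backbones spread further than the endings: library medians ran over 0.68 on the log2 scale, from p53_60, at 36.25, to MITF_sebox_60, at 58, and ending medians over 0.18, or 0.36 with 1 name per distinct sequence. On the UV arrays p53_E60 was the brightest library without dipyrimidines, at 3590 on CPD UV and 6491.5 on 6-4PP UV, while TBP_60 was lowest on CPD UV, at 1817.75, and TBP_E60 on 6-4PP UV, at 4308.75.

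The number of A and T bases among the 4 went with small shifts in these members. On 6-4PP UV, endings that start with a pyrimidine had medians of 4400.5 with 0 A or T bases (7 names), 4875.25 with 1, 5003.25 with 2, 4934.75 with 3 and 4874 with 4 (7 names). On CPD UV they had 2122.5, 2184.5, 2399.75, 2462.25 and 2492 in the same order. Endings that start with a purine showed no steady order on CPD UV, with 2078.75, 2336.5, 2305.25, 2216.75 and 2205.

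The dimmest members on CPD UV were TBP_60_TACG at 972.5 ± 667, TBP_E60_GCGT at 983 ± 779 and TBP_60_CGCA at 1041 ± 858 (median ± SD over 10 spots), all without a dipyrimidine. With the adjusted intensity they had 1861.68, 1755.38 and 1854.33, nearer to the median of their class. TBP_60_TACG and TBP_60_CGCA also had the lowest CPD UV minus non-UV differences, at 5.09 and 5.17. On 6-4PP UV the dimmest member was MITF_Ex_ebox_59_TGTG at 2635 ± 3591, which does hold a dipyrimidine, CT between G and G, and its spots ran from 1850 to 13490. TBP_E60_GCGT followed at 3237.5 ± 1168 and TBP_E60_GCGC at 3375.5 ± 1216. With the adjusted intensity MITF_Ex_ebox_59_TGTG had 3519.18, TBP_E60_GCGT 3510.97 and TBP_E60_GCGC 3354.5, so the probe with a dipyrimidine was then not the dimmest of them. The lowest 6-4PP UV minus non-UV differences were 5.46 for MITF_Ex_ebox_59_TGTG and 5.77 for MITF_Ex_ebox_60_ACAT, which has 0 dipyrimidines and a non-UV median of 70.5. With the adjusted intensity they were 5.83 and 5.79 in the same order.

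At the other end on CPD UV, TBP_E59_ATAT had 12090 ± 2376, TBP_MUT_E59_ATAT 12088 ± 1955 and p53_E_mut_60_TATA 10993.5 ± 1419 (median ± SD over 10 spots). The first pair holds a single ATTA on the listed strand, and the third holds GTTA and ATTA. Their spots overlapped, from 7104 to 14770 in TBP_E59_ATAT and from 7175 to 11707 in p53_E_mut_60_TATA. The same probes had 22445.5, 23085 and 18348 on 6-4PP UV. The largest CPD UV minus non-UV differences were 8.21 for p53_E60_TGTA, with 8860 on UV and 30 on non-UV, and 8.18 for MITF_Ex_ebox_59_GTAT, with 9402 on UV and 32.5 on non-UV.

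Set against all other endings of their library, the alternating endings were dimmer in 21 of 21 libraries on both UV arrays. The median difference of library medians was -0.55 on CPD UV (-0.97 to -0.09) and -1.27 on 6-4PP UV (-1.78 to -0.59). In the median library 16 of the 32 dimmest endings on 6-4PP UV were alternating ones and 0 of the 32 brightest. On CPD UV 7 of the 32 dimmest were, from 4 in p53_mut_60 to 13 in p53_E_mut_60, and 0 of the 32 brightest. Alternating endings make up 12.5% of the names in these libraries. On the non-UV arrays the median difference of library medians was -0.07 for CPD and -0.04 for 6-4PP. Against other endings with the same number of dipyrimidines, in the libraries and classes that have them, the median over libraries was 0.0225 on CPD UV and 0.0609 on 6-4PP UV. Members with 1 dipyrimidine had medians of 3088.75 on CPD UV and 7930.75 on 6-4PP UV, and the 256 other distinct sequences with 1 had 3150.75 and 8032. Members with 2 had 3722 on CPD UV and 13803.8 on 6-4PP UV, and the 1584 other distinct sequences with 2 had 3902 and 11824.2.

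Dipyrimidines at a joint were also set against those placed inside the varied bases. In 22 contexts and strands found in both positions with a single dipyrimidine, the median difference of joint minus inside was -0.03 on CPD UV (-0.26 to 0.28) and 0.03 on 6-4PP UV (-0.14 to 0.25). Sequences printed under both kinds of name were left out of this comparison. No interval was computed for these medians, so a small difference is not shown to be absent.

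The antibodies ranked the members partly alike. Across the 672 members the Spearman correlation of CPD UV and 6-4PP UV intensity was 0.66. It was 0.71 within the 208 names without a dipyrimidine, 0.61 within the 256 with 1 and 0.40 within the 208 with 2. These correlations describe probes that share backbones, printing and, in the class without dipyrimidines, sequences, and probes are not independent replicates.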

How the data were processed

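The deposited files hold, per the file headers, the fluorescence intensity of the Alexa label for each spot on a linear scale, a version with flagged spots left out, and a version adjusted for local array brightness by the authors. The sources used here do not give scanner settings, UV dose or how the intensities were normalized. The value of a name was the median of its unflagged intensities, and the adjusted intensity, the mean of spots and flagged spots were alternatives. Flags left out 41 member spots on the 6-4PP UV array and 126 on 6-4PP non-UV, of 6720 on each array.

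The dipyrimidine count took both strands of a probe, up to the last 10 bases, which all probes share. Pairs were compared by the two-sided exact permutation test with Benjamini-Hochberg adjustment over 10752 pairs per array, and its script was tested on simulated data (Python 3.11.15, numpy 2.4.6, pandas 2.3.3, scipy 1.17.1). Array groups came from the condition field.

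Named probes were the 3 brightest and 3 dimmest members per UV array, the 2 highest and 2 lowest UV minus non-UV differences per antibody (names with 3 or more unflagged spots per array), the 2 brightest per non-UV array, endings that repeat a dinucleotide, and the largest passing pair per UV array and varied position. Other probes were named to illustrate a group after their values were seen. The members and lists were chosen with earlier results of these data known.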

Additional observations from a re-analysis of the deposited data

Results flagged for a closer look

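A change in the second base of a single dipyrimidine went one way with the CPD antibody and the other way with the 6-4PP antibody, which drew attention to 4 values. For CC to CT the median log2 difference over 48 pairs was 0.33 with CPD and -0.49 with 6-4PP, each on its UV array. For TC to TT the median over 16 pairs was 0.22 on CPD UV and -0.74 on 6-4PP UV. The difference between the antibodies was not tested, since each antibody has 1 irradiated array. Computed from single spots in place of spot medians, the CPD value kept its sign in 9 of 10 spots for CC to CT (SD 0.23) and in 8 of 10 for TC to TT (SD 0.29), and both 6-4PP values kept theirs in 10 of 10 (SD 0.10 for CC to CT and 0.14 for TC to TT).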

How the results depend on the processing

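Of 170 values recomputed for 43 results under the alternatives, 149 stayed within the SD over single spots (for counts of pairs, within 1.5 times), 18 moved further and 3 changed sign. With the spatially adjusted intensity the 6-4PP UV minus non-UV difference was 7.25, the CPD UV difference for TC to TT 0.60, and members minus other endings -0.052 on CPD non-UV and -1.22 on 6-4PP UV. Passing pairs of members were then 463 on CPD UV, 67 on CPD non-UV and 26 on 6-4PP non-UV. Those of all library pairs were 6830 against 3480 on CPD UV, 1848 against 820 on CPD non-UV and 357 against 320 on 6-4PP non-UV. With an adjusted p under 0.01 (exact permutation test) the passing pairs of members were 76, 6 and 3 on those arrays. The count over all library pairs at that threshold was not computed, so no share stands beside these counts. With the mean of spots the 6-4PP UV minus non-UV difference was 7.22, CT to TT on CPD UV 1.19, members minus other endings -1.21 on 6-4PP UV and -0.030 on 6-4PP non-UV, and the range over endings without a dipyrimidine 0.22 on CPD non-UV. With 1 name per distinct sequence that range was 0.36 on 6-4PP non-UV. At the same number of dipyrimidines, members minus other endings was 0.0225 on CPD UV, 0 on CPD non-UV, 0.0609 on 6-4PP UV and 0 on 6-4PP non-UV. Read by the titles, the 6-4PP UV minus non-UV difference is -7.18, by construction. The cause of the other shifts was not tested. Of 72 values of named members, 68 stayed within their spot SD. No paired analysis was possible because each group holds 1 array. Intensities at the ceiling are lower bounds, and spot SDs cover 1 irradiation and 1 hybridisation per array.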
